A study of Mus musculus with 16 samples.

Results

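The 10 genes described here, of 23100 in the deposited count table, encode elastin and the proteins of the elastic fibre and its microfibrils: Eln, Fbn1, Fbn2, Mfap2, Mfap4, Mfap5, Fbln1, Fbln2, Fbln5 and Efemp1. They were chosen by gene symbol, and all 10 were found and passed the filter on low counts. The cells were fibroblasts grown out of C57BL/6 mouse embryos at E13.5, kept in DMEM medium with 10% serum, and their RNA was sequenced. There were 2 wildtype lines (Zac+/+) and 2 lines mutant for Zac1 (Zac+/-), the zinc finger transcription factor gene now called Plagl1. The titles of the mutant samples carry the code KOpat, which the labels do not expand. Every line was harvested at day 2 in vitro, when the labels call the cells proliferative, and at days 8, 10 and 12, when they call them quiescent. The 16 libraries thus form 8 groups, each with 2 lines, and no treatment other than time in culture was given in the labels. The series title names extracellular matrix genes among those regulated by Zac1, and the comparisons below ask how the elastic fibre genes stood between states, days and genotypes.

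Elastic fibres let tissues such as arteries, lung and skin stretch and recoil. Elastin, secreted as soluble tropoelastin, forms the core and is crosslinked by lysyl oxidases. Fibrillins assemble into beaded microfibrils that scaffold the core, microfibril-associated glycoproteins bind to them, and fibulins link tropoelastin to fibrillin and to the crosslinking enzymes. Fibroblasts and smooth muscle cells make these proteins, and fibrillin microfibrils also hold latent TGF-beta in the matrix.

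Total counts per library were 28079241 to 61039793, and the 10 genes together took 0.358% to 0.445% of the counts in the 4 proliferative libraries and 0.535% to 0.878% in the 12 quiescent ones. Plagl1 was at 37.7 to 45.4 CPM (the count scaled to the total of its library) in wildtype lines and 7.60 to 9.14 CPM in mutant lines at day 2, and at 128 to 231 CPM and 40.5 to 60.3 CPM across days 8 to 12, so its level followed the genotype labels in every library. The label of fibroblasts was checked on 9 markers, of which 9 were detected, with a summed level of 13648 to 15066 CPM at day 2 and 30478 to 42794 CPM later. Endothelial markers summed to at most 32.6 CPM, with Pecam1, Cdh5 and Cldn5 at or near 0 and Erg and Kdr reaching 29.4 and 15.7 CPM. Skeletal muscle markers summed to 9.69 to 29.2 CPM, mostly Des, with Myf5 and Ckm at 0 in all libraries. The smooth muscle list was high, at 10038 to 12249 CPM in proliferation and 5986 to 8612 CPM at quiescence. Its highest members were Acta2 and Tagln, which cultured fibroblasts also express, at means of 4787 and 2897 CPM over all libraries. Cnn1 (286), Myh11 (171), Smtn (118) and Lmod1 (113) were also expressed, Des was at 18 and the regulator Myocd at 0.795 CPM. Cell division markers such as Mki67 summed to 1149.5 to 1420.3 CPM at day 2 and 222 to 453 CPM later, and neural markers to 403 to 469 CPM and 96.0 to 165 CPM. Epithelial markers summed to at most 15.0 CPM. The part of these shifts in the changes between states was not tested.

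Promoters of 3 members are shown because their genes did different things in culture: Mfap2 rose several-fold, Fbn1 about doubled and Fbln2, the most abundant member per kilobase, did not rise. Each is the 250 bases upstream of the first listed start site, from RefSeq (GRCm38.p6), written 5′ to 3′ on the gene's strand, with the GC box (GGGCGG, or its reverse complement) in capitals.
Mfap2, chr4:141010431-141010680, plus strand: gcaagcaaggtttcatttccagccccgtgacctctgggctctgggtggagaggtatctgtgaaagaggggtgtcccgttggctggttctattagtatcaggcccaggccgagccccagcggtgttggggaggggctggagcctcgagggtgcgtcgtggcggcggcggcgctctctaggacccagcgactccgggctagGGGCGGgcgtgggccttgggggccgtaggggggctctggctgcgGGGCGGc
Fbn1, chr2:125506439-125506688, minus strand: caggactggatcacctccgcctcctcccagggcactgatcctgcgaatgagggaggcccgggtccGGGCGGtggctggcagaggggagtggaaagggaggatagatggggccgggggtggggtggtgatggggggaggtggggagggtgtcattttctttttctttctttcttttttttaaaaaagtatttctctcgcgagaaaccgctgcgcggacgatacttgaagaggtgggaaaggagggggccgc
Fbln2, chr6:91212514-91212763, plus strand: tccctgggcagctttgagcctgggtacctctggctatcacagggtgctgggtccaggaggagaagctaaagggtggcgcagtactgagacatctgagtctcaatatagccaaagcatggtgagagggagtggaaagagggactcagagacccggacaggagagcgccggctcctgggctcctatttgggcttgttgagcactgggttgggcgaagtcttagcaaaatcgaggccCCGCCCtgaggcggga
The RefSeq table matched 6 of the 10 members, with 9 start sites. The GC box was found on either strand in 6 of the 9 windows, against 32.7% of all 32851 promoter windows of this length. The windows with it held 53.6% to 68.8% G and C and the others 46.4% to 51.2%, where the median of all windows was 52.4%. The part of this base content in the count was not tested. None of the 9 held TATAAA, which 12.4% of all windows held. The AP-1 motif TGANTCA (6.75% of all windows) was in 1 window, that of Efemp1. The TEAD motif CATTCC (12.6%) was in 1 window, at the second start site of Mfap2. The E-box CACGTG (6.02%) was in 2 windows, both of Fbln1. These 2 windows overlap, so the 9 windows are not separate promoters. The 3 printed windows all held the GC box whichever way their gene moved, at 1 copy for Fbn1 and Fbln2 and 2 copies for Mfap2. The window of the second Mfap2 start site, not printed, held 0 copies. The search was for exact letters on both strands, and a match is a description of the sequence only.

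From proliferation to quiescence, most of the 10 genes rose in both genotypes, and they did so by very unequal amounts. Eln, Mfap4 and Fbn2 rose more than 10-fold, Mfap2 5.80- to 6.75-fold, and Fbn1, Fbln5 and Efemp1 about 2-fold, while the fitted changes of Fbln1, Mfap5 and Fbln2 were at most 1.67-fold. In wildtype cells 8 of the 10 were called higher and 0 lower (edgeR, adjusted p under 0.05), where 23.9% of all 15740 genes tested were called higher and 23.7% lower. In mutant cells 7 were called higher and 1 lower, against 21.1% and 21.0% of all genes. The median change of the members was 1.05 on the log2 scale in wildtype and 1.06 in mutant cells, against 0.05 over all genes in each. For this comparison the counts of days 8, 10 and 12 of a line were summed, so each group had 2 lines. In bulk RNA, fewer cells that make a transcript and less of it per cell cannot be told apart.

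**Figure D1:**
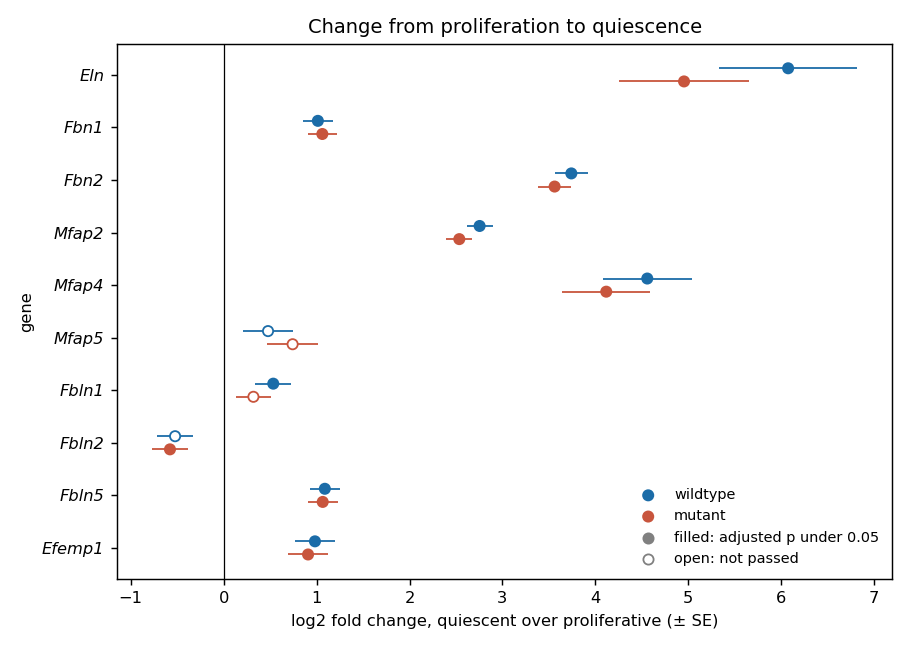
Change of each elastic fibre gene from proliferation to quiescence, as a log2 fold change on the x axis with its SE as a bar, in wildtype (blue) and mutant (red) lines, n = 2 lines per group. Filled points passed an adjusted p of 0.05. Eln (6.07 and 4.95), Mfap4 (4.56 and 4.12) and Fbn2 (3.74 and 3.56) lie farthest right, and Fbln2 is the gene left of 0.

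Eln, which encodes the elastin precursor, changed most. At day 2 it was at 12.3 and 11.7 CPM in wildtype replicates 1 and 2 and at 17.7 and 38.0 CPM in mutant replicates 1 and 2. At day 8 the same lines were at 489, 288, 580.5 and 357 CPM, at day 10 at 1160.3, 467, 1575 and 660.0 CPM, and at day 12 at 1448, 977, 1883 and 483 CPM. Every quiescent library lay above every proliferative one. The rise was 67.4-fold in the wildtype lines (log2 6.07, SE 0.74, adjusted p = 0.00187) and 31.0-fold in the mutant lines (log2 4.95, SE 0.70, adjusted p = 0.00383). The lines differed widely: the ratio of quiescent to proliferative CPM was 85.1 and 48.8 in the wildtype lines and 70.5 and 13.2 in the mutant lines, lowest in mutant replicate 2, whose starting level was the highest. Without wildtype replicate 1 or 2 the wildtype change had an adjusted p of 0.0908 or 0.0692, at a log2 of 5.60 or 6.38, with the lone line assumed to vary like the other groups. The part of the smooth muscle markers, given above, in the level of Eln was not tested.

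The fibrillins, which form the backbone of the microfibril, rose together but at different rates. Fbn1, the main fibrillin of postnatal tissues, was at 688 and 771 CPM in the wildtype and 855 and 747 CPM in the mutant lines at day 2. Across days 8 to 12 it was at 1201 to 1740.4 CPM in wildtype and 1211 to 2092 CPM in mutant lines, above all day 2 libraries. It rose 2.02-fold in the wildtype lines (log2 1.01, SE 0.16, adjusted p = 0.000547) and 2.09-fold in the mutant lines (log2 1.06, SE 0.16, adjusted p = 0.000523). Fbn2, the fibrillin known mainly from embryonic tissue, was at 51.5 and 56.1 CPM in wildtype and 61.4 and 62.7 CPM in mutant lines at day 2. From day 8 on it was at 505 to 911 CPM in wildtype and 608 to 925 CPM in mutant lines. Its rise was 13.4-fold (log2 3.74, SE 0.18, adjusted p = 1.10e-06) and 11.8-fold (log2 3.56, SE 0.17, adjusted p = 1.91e-06), and no quiescent library came near the proliferative range.

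The balance between the fibrillins moved. For each read of Fbn1 there were 0.0718 to 0.0840 reads of Fbn2 in the 4 proliferative libraries and 0.365 to 0.537, with a median of 0.473, in the 12 quiescent ones. This ratio is taken within a library and does not depend on the scaling between libraries, and the ranges did not overlap. The microfibril-associated glycoproteins encoded by Mfap2 and Mfap5 showed a similar shift: the ratio of Mfap2 to Mfap5 reads was 0.740 to 1.18 in proliferation and 2.67 to 4.70 at quiescence, with a median of 3.51. These are ratios of read counts between genes of different length, so their change between states can be read but not their absolute size.

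**Figure D2:**
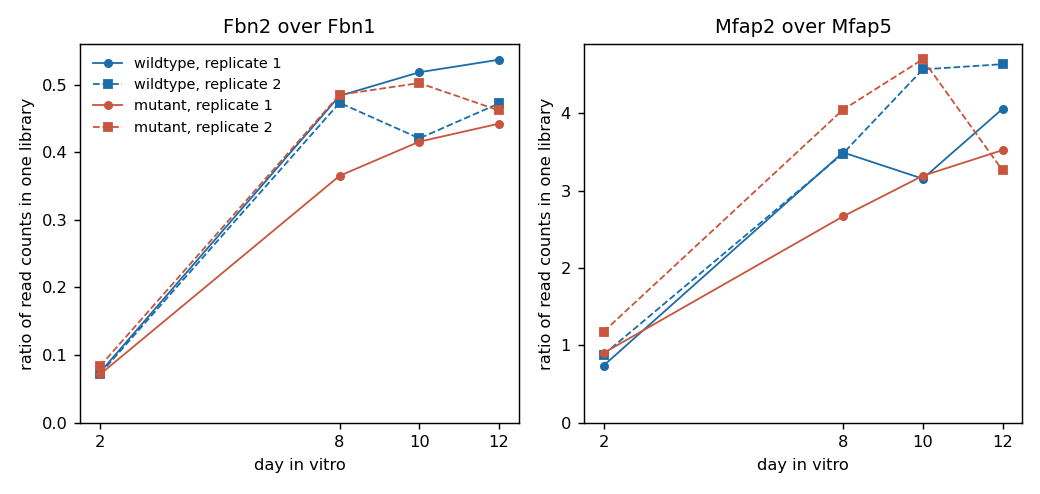
Ratio of Fbn2 to Fbn1 reads (left) and of Mfap2 to Mfap5 reads (right) in each library, against day in vitro, with 1 line per cell line (blue wildtype, red mutant, solid replicate 1, dashed replicate 2). In all 4 lines both ratios were lowest at day 2, where Fbn2 over Fbn1 was at most 0.0840, and the lowest later value was 0.365.

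Among the microfibril-associated genes, Mfap2 and Mfap4 rose and Mfap5 did not pass the test used here, with a result in both genotypes that depended on the model. Mfap2, whose glycoprotein binds fibrillin and tropoelastin, was at 15.3 and 13.4 CPM in wildtype and 16.9 and 14.5 CPM in mutant lines at day 2. Across days 8 to 12 it was at 65.0 to 123 CPM in wildtype and 66.0 to 124 CPM in mutant lines. The 4 lines agreed closely, with ratios of 6.94, 6.51, 5.54 and 6.07, and the rise was 6.75-fold in the wildtype lines (log2 2.75, SE 0.14, adjusted p = 1.39e-06) and 5.80-fold in the mutant lines (log2 2.54, SE 0.14, adjusted p = 2.48e-06).

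Mfap4, which encodes a fibrinogen-related protein of the elastic fibre, started low, at 5.62 and 4.91 CPM in wildtype and 7.17 and 3.99 CPM in mutant lines. At day 12 it had reached 242 and 119 CPM in wildtype and 169.6 and 112 CPM in mutant lines. The rise was 23.6-fold in the wildtype lines (log2 4.56, SE 0.48, adjusted p = 0.000527) and 17.4-fold in the mutant lines (log2 4.12, SE 0.47, adjusted p = 0.000980), with no overlap between states. Without mutant replicate 1 or 2 the mutant call was lost, at an adjusted p of 0.0521 or 0.0676.

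Mfap5, whose product is the second fibrillin-binding glycoprotein of this family, was at 12.3 to 20.7 CPM at day 2 and 17.8 to 35.3 CPM later, ranges that overlapped across lines. Its log2 difference was 0.48 (SE 0.27, adjusted p = 0.177) in wildtype and 0.74 (SE 0.27, adjusted p = 0.0559) in mutant cells. In each of the 4 lines the quiescent sum was above the day 2 value, by 1.34 to 1.74 times. With the line as a block, which compares each line with itself, Mfap5 was called higher in wildtype (log2 0.47, adjusted p = 0.0216) and in mutant cells (log2 0.74, adjusted p = 0.00154). In mutant cells it also passed with DESeq2 (adjusted p = 0.0126), limma-voom (0.0124), a filter of 10 CPM (0.0391), the 2 groups alone (0.0463) and the sum without day 8 (0.0307).

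Of the fibulin family, Fbln5 and Efemp1 rose about as much as Fbn1. Fbln5, which encodes the fibulin that brings tropoelastin to the microfibril, was at 379.8 and 395 CPM in wildtype and 411 and 415 CPM in mutant lines at day 2, and at 659.5 to 1051 CPM in the 12 quiescent libraries. It rose 2.13-fold in the wildtype lines (log2 1.09, SE 0.16, adjusted p = 0.000425) and 2.09-fold in the mutant lines (log2 1.07, SE 0.16, adjusted p = 0.000614). Efemp1, the gene of fibulin-3, was at 201 to 223 CPM at day 2 and at 301 to 565 CPM later, again with no overlap. Its rise was 1.98-fold in the wildtype lines (log2 0.98, SE 0.21, adjusted p = 0.00493) and 1.88-fold in the mutant lines (log2 0.91, SE 0.21, adjusted p = 0.00852). The mutant call for Efemp1 was lost without mutant replicate 1 or 2, at an adjusted p of 0.143 or 0.150.

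Fbln2, whose product binds fibrillin and many basement membrane proteins, went the other way. It was at 2388 and 2812 CPM in wildtype and 2954 and 2844 CPM in mutant lines at day 2. Across the quiescent days it was at 1259.9 to 2253 CPM in wildtype and 1315 to 2373 CPM in mutant lines, below the day 2 value of the same line in all cases. In mutant cells it fell 1.49-fold (log2 -0.58, SE 0.19, adjusted p = 0.0384), and without mutant replicate 2 this call was lost (log2 -0.33, adjusted p = 0.274). In wildtype cells the log2 difference was -0.52 (SE 0.19, adjusted p = 0.0506). With the line as a block the wildtype decrease passed the test (log2 -0.53, adjusted p = 0.0220). The 2 wildtype lines differed, with ratios of quiescent to proliferative CPM of 0.859 in replicate 1 and 0.559 in replicate 2. When single lines were left out, the wildtype log2 difference ran from -0.85 to -0.25.

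Fbln1, the gene of fibulin-1, a fibulin of elastic fibres and basement membranes, was at 20.4 to 22.8 CPM at day 2 and 16.2 to 36.6 CPM later, with the highest values in both replicate 1 lines. It was called higher in wildtype (log2 0.53, SE 0.19, adjusted p = 0.0443) and did not pass in the mutant lines (log2 0.32, SE 0.19, adjusted p = 0.211). The wildtype call was lost without wildtype replicate 1 (log2 0.24, adjusted p = 0.524) or wildtype replicate 2 (log2 0.74, adjusted p = 0.0637). It was also lost with limma-voom (adjusted p = 0.0920) and with the quiescent sum without day 8 (0.110) or day 10 (0.0603).

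**Figure D3:**
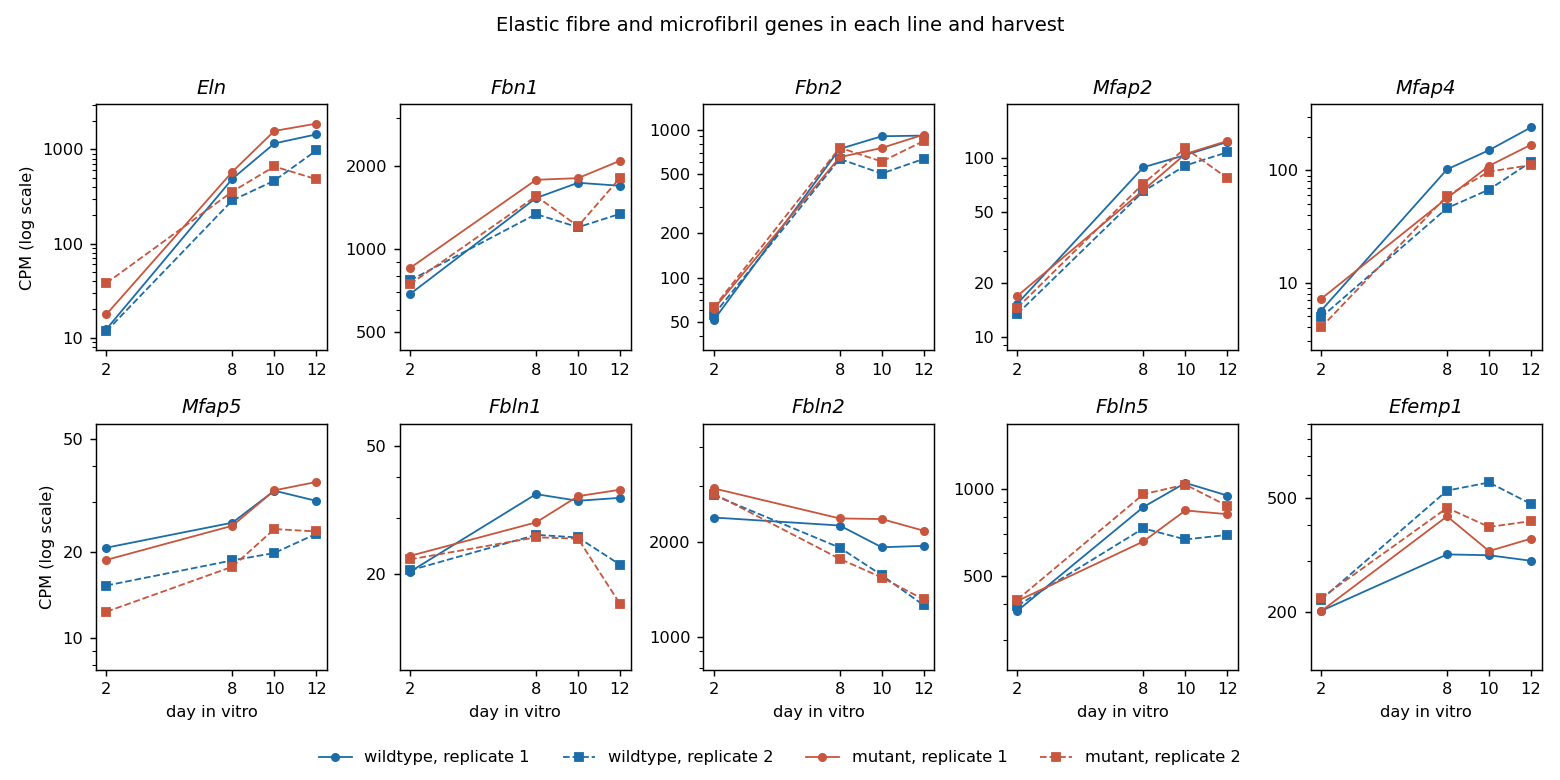
CPM of each of the 10 genes (log scale, each panel with its own range) against day in vitro, with 1 line per cell line: blue wildtype, red mutant, solid with circles replicate 1, dashed with squares replicate 2. On this log scale the largest step between harvests for Eln, Fbn2, Mfap2 and Mfap4 lies between days 2 and 8, which is also the longest interval. Eln goes from at most 38.0 CPM to at least 288 CPM there, and Fbln2 falls in all 4 lines.

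Divided by transcript length, the order of the members changed between states. Levels were expressed as CPM per kilobase of the principal transcript in the GENCODE annotation of GRCm38, which is not the build the authors used. In proliferating wildtype cells Fbln2 stood first at 537 ± 64.4 CPM per kilobase (SD, n = 2), above Efemp1 (102 ± 6.99), Fbln5 (65.7 ± 2.2), Fbn1 (60.2 ± 5.14), Mfap2 (13.2 ± 1.17) and Mfap5 (11.8 ± 2.48). Fbln1 (5.53 ± 0.0632), Fbn2 (4.81 ± 0.313), Eln (3.08 ± 0.0928) and Mfap4 (3.02 ± 0.276) made up the low end of that per-length order. Among neighbours in this order, the lines overlapped for Mfap2 and Mfap5 and for Eln and Mfap4.

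At quiescence in wildtype cells Fbln2 was still first on the per-length scale at 374 ± 68.4 CPM per kilobase (SD, n = 2), and Eln was second at 208 ± 85.2. Efemp1 (202 ± 72.6), Fbln5 (140 ± 30.7), Fbn1 (122 ± 21.5), Mfap2 (89.1 ± 11.9), Mfap4 (70.8 ± 37.4) and Fbn2 (64.4 ± 16.8) followed, and Mfap5 (16.4 ± 4.12) and Fbln1 (8.01 ± 1.92) came last. The lines of neighbouring genes overlapped from Eln through Efemp1 and Fbln5 to Fbn1, and again from Mfap2 through Mfap4 to Fbn2, so the order within these runs is not resolved with 2 lines. Both lines of Fbn1 (137 and 106) lay above both of Mfap2 (97.5 and 80.7). In mutant lines Eln was at 7.18 ± 3.73 CPM per kilobase in proliferation and 225 ± 135 at quiescence. The place of Eln depends on the length used: divided by the union of all its annotated exons its rank at quiescence in wildtype was 5, at 98.7 CPM per kilobase.

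The mix of transcripts shifted from one gene to several. Of the members' summed CPM per kilobase, Fbln2 made up 65.2% to 68.1% in the 4 proliferative libraries and 21.4% to 38.2%, with a median of 28.1%, in the 12 quiescent ones. Eln made up 0.351% to 1.12% and then 6.58% to 27.7%, with a median of 12.9%. The share of Fbn2 went from 0.585% to 0.643% in proliferation to 4.04% to 6.66% at quiescence, and that of Mfap2 from 1.44% to 1.87% to 4.74% to 8.74%. In none of these 4 genes did the shares of the states overlap. The shares rest on the length of the principal transcript. By the union of exons, quiescent wildtype Eln was at 98.7 and Fbln2 at 281 CPM per kilobase, so the size of the shares depends on the length used.

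**Figure D4:**
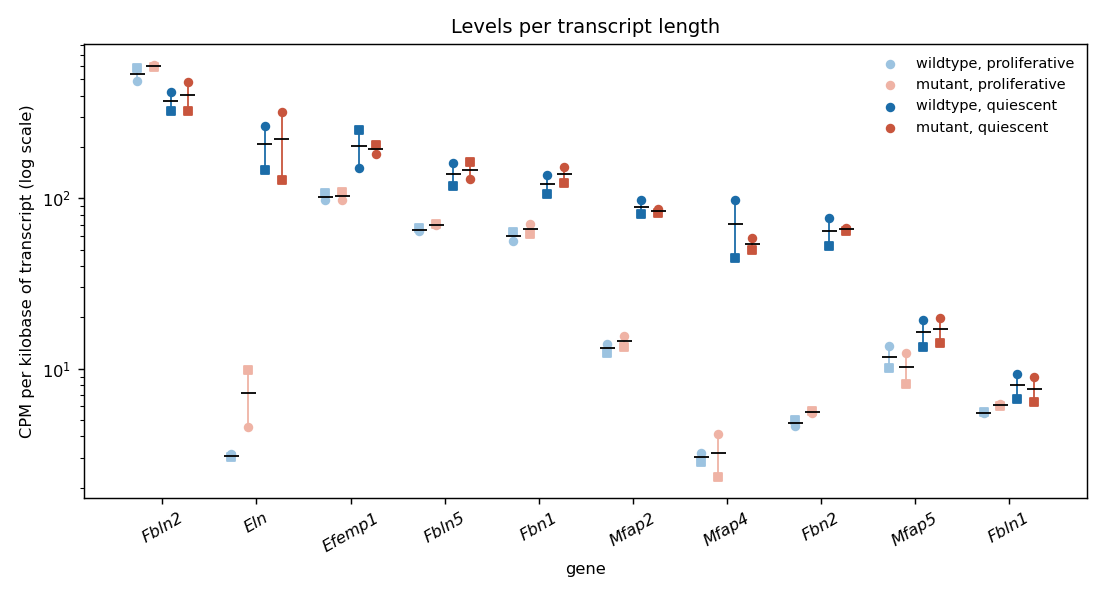
CPM per kilobase of the principal transcript (log scale) of each gene in the 4 groups of genotype and state. Circles are replicate 1, squares replicate 2, and a black bar is the mean of the 2 lines. Pale points are proliferative and dark points quiescent, and Eln moves from 3.08 to 208 in wildtype while Fbln2 moves from 537 to 374.

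The comparison of single days, averaged over the genotypes, gave the most calls between days 2 and 8. In this step 7 of the 10 members were called higher and 0 lower, against 28.1% and 26.4% of 15439 genes tested (edgeR over 16 libraries, which treats the harvests of one line as separate replicates). The log2 changes of those called were 4.54 for Eln (adjusted p = 0.000190), 3.62 for Mfap4, 3.59 for Fbn2, 2.28 for Mfap2, 1.04 for Efemp1, 1.02 for Fbn1 and 1.01 for Fbln5. The other log2 values were 0.44 for Fbln1, 0.38 for Mfap5 and -0.40 for Fbln2. With the line as a block these 3 passed the test as well, with adjusted p of 0.0341, 0.00237 and 0.0115. Without mutant replicate 1 or 2 the call for Efemp1 was lost (adjusted p = 0.0858 or 0.0801), and without mutant replicate 1 that for Fbln2 was gained (log2 -0.51, adjusted p = 0.0454).

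Within the quiescent period few changes passed. From day 8 to day 10 edgeR called 0 members, against 0.00648% of all genes higher and 0.0583% lower. Mfap2 alone had an unadjusted p under 0.05 (log2 0.50, SE 0.14, adjusted p = 0.222), and 1 member, Mfap2, was called by DESeq2 (adjusted p = 0.0431). From day 10 to day 12 edgeR and DESeq2 called 0 and 0 had an unadjusted p under 0.05, against 0.0259% and 0.389% of all genes called.

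In CPM, as opposed to fold, much of the gain of Eln and Mfap4 came later: the wildtype means were 12.0, 388, 813 and 1212 CPM for Eln and 5.27, 74.3, 109.6 and 181 CPM for Mfap4 at days 2, 8, 10 and 12. The mutant means were 27.8, 469, 1117 and 1183 CPM for Eln and 5.58, 58.0, 104 and 141 CPM for Mfap4. The spread between lines was wide at the later days, and in mutant replicate 2 Eln fell from 660.0 to 483 CPM between days 10 and 12.

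Over the longer step from day 8 to day 12, 1 member was called higher, Mfap2 (log2 0.56, SE 0.14, adjusted p = 0.0429), where 1.12% of all genes were higher and 2.00% lower. This call was lost without wildtype replicate 1, wildtype replicate 2 or mutant replicate 1 (adjusted p = 0.178, 0.450 and 0.269). Eln had a log2 difference of 1.49 (SE 0.53, adjusted p = 0.223), with values at day 12 above day 8 in all 4 lines. Mfap4 had 1.28 (SE 0.36, adjusted p = 0.113), again above day 8 in all 4 lines. It passed with DESeq2 (adjusted p = 0.0127) and limma-voom (0.0122), so its call depended on the model. When single lines were left out, its log2 difference ran from 1.10 to 1.44. With the line as a block 3 members were called, Mfap2, Mfap4 (log2 1.27, adjusted p = 0.000163) and Mfap5 (log2 0.37, adjusted p = 0.0211).

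Between genotypes no elastic fibre gene passed the test in either state. At quiescence 0 of 10 members were called by edgeR, 0 had an unadjusted p under 0.05, and DESeq2 and limma-voom called 0. Over all genes 0% were called higher and 0.00635% lower, which is Plagl1 itself (log2 -1.88 at quiescence and -2.31 in proliferation). The log2 differences at quiescence, mutant over wildtype, ran from -0.39 for Mfap4 (SE 0.40) to 0.19 for Fbn1 (SE 0.16), with Eln at 0.12 (SE 0.59), each at an adjusted p of 1.00. The summed quiescent CPM of Eln was 799.6 ± 328 in wildtype and 866 ± 521 in mutant lines (SD, n = 2), so the lines of a genotype lay farther apart than the genotypes did. Fbn2 and Mfap2 had the smallest error among the genes that rose most, with log2 differences of 0.03 (SE 0.16) and -0.08 (SE 0.13).

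In proliferating cells 0 of 10 members were called, with the same 0% of genes higher and 0.00635% lower over the whole table, 0 at an unadjusted p under 0.05 and 0 by DESeq2 and limma-voom. The differences ran from -0.21 for Mfap5 (SE 0.27) to 1.24 for Eln (SE 0.63, unadjusted p = 0.106, adjusted p = 1.00), and 9 of 10 were above 0, with a median of 0.14 against 0.00 over all genes. For 5 of the 10 genes, Eln, Fbn2, Fbln1, Fbln2 and Fbln5, both mutant lines lay above both wildtype lines, as 12.4% of all genes did, and for 0 of 10 both lay below (11.4%). For Eln these were 17.7 and 38.0 CPM against 12.3 and 11.7 CPM, and mutant replicate 2 supplied most of that gap. For the other 4 the gap was small: Fbn2 was at 61.4 and 62.7 against 51.5 and 56.1 CPM, and Fbln5 at 411 and 415 against 379.8 and 395 CPM. At quiescence 0 members separated in either direction, against 12.8% of all genes above and 9.82% below.

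**Figure D5:**
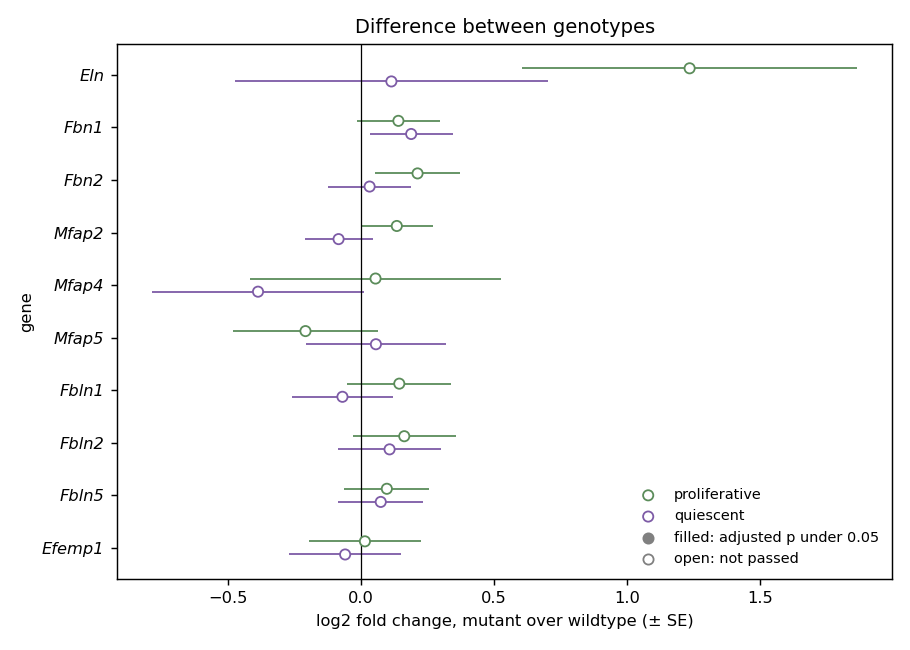
Log2 fold change of mutant over wildtype for each gene on the x axis, with its SE as a bar, in proliferation (green) and at quiescence (purple), n = 2 lines per group. All points are open, since none passed an adjusted p of 0.05, and Eln in proliferation (1.24, SE 0.63) lies farthest from 0.

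The change from proliferation to quiescence was not shown to differ between genotypes for any member. In the interaction 0 of 10 were called by edgeR, DESeq2 or limma-voom, 0 had an unadjusted p under 0.05, and 0% of all genes were called in either direction. The value for Eln was -1.12 (SE 0.86, adjusted p = 1.00), a smaller fitted rise in mutant lines that did not pass the test. For Mfap4 it was -0.44 (SE 0.62) and for Mfap2 -0.22 (SE 0.19). At the single days 8, 10 and 12 0 members were called between genotypes by edgeR, DESeq2 or limma-voom and 0 had an unadjusted p under 0.05, against 0.00648% of all genes called lower and 0% higher at each day, and the log2 values ran from -0.36 to 0.46.

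The lines also differed by replicate number. The labels give both replicate 1 lines the letter I and both replicate 2 lines the letter L, without saying what the letters mark. At each of days 8, 10 and 12, both replicate 1 lines were above both replicate 2 lines for 4 of the 10 genes, Eln, Fbln1, Fbln2 and Mfap5, as they were for 4.16% of all genes. Both were below for 1 gene, Efemp1, against 5.11%. At day 10, for example, Eln was at 1160.3 and 1575 CPM in the replicate 1 lines and 467 and 660.0 CPM in the replicate 2 lines, and Efemp1 was at 315 and 326 CPM against 565 and 395 CPM. This count is a description of 4 lines with no test. Some marker lists of other cell types moved with this split. At quiescence the skeletal muscle list, nearly all of it Des, summed to 23.7 to 25.8 CPM in wildtype and 18.5 to 29.2 CPM in mutant replicate 1, and to 9.69 to 12.0 CPM in wildtype and 12.6 to 19.4 CPM in mutant replicate 2. The cartilage list summed to 133 to 154 CPM in wildtype and 112 to 195 CPM in mutant replicate 1, and to 194 to 341 CPM in wildtype and 257 to 727 CPM in mutant replicate 2. The macrophage and blood list was ordered otherwise: it summed to 156 to 391 CPM in quiescent mutant replicate 1 and 102 to 221 CPM in wildtype replicate 2, but to 26.3 to 66.8 CPM in wildtype replicate 1 and 12.1 to 56.7 CPM in mutant replicate 2. The part of these lists in the levels of the members was not tested.

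The other genes of the elastic fibre pathway were taken from lists of known function, and their counts stand beside the 23.9% of all genes called higher and 23.7% lower in wildtype and 21.1% and 21.0% in mutant cells. Of 12 further structural and assembly proteins, 7 were called higher and 1 lower at quiescence in wildtype and likewise in mutant cells, with a median log2 change of 0.87 in each. The 7 include Emilin3, which had 0 reads in proliferating wildtype and 1 in proliferating mutant lines, so no fold is given. Fbln7, a further fibulin, rose by 5.15 in wildtype and 4.59 in mutant cells on the log2 scale, from 34 and 40 reads over the proliferative libraries of each genotype. Mgp, the matrix Gla protein that holds back calcification, rose by 3.10 and 3.11. Fn1, the fibronectin on which fibrillin assembles, rose by 0.95 and 0.94, and Emilin1 by 1.53 and 1.15.

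The 5 lysyl oxidases, which crosslink elastin, had 1 gene called higher and 2 lower in each genotype, against 23.9% and 23.7% of all genes in wildtype and 21.1% and 21.0% in mutant cells. Lox rose by 0.98 in wildtype and 0.95 in mutant cells on the log2 scale, while Loxl3 fell by 1.11 and 1.17 and Loxl4 fell by 0.96 and 0.81. The Loxl4 call in mutant cells was lost without mutant replicate 1 or 2 (adjusted p = 0.0744 or 0.214). Of 8 ADAMTS and ADAMTS-like genes, whose products bind fibrillin and influence microfibril assembly, 6 were higher in each genotype and 1 was lower in wildtype (Adamtsl5, log2 -0.54, adjusted p = 0.0181). Adamtsl3 rose by 2.46 and 2.44 and Adamts10 by 0.84 and 0.62, the latter losing its call without wildtype replicate 1 in wildtype (adjusted p = 0.0627) and without mutant replicate 1 in mutant cells (0.0911). Adamts17 rose by 3.44 and 5.58, from only 37 and 8 reads in proliferation.

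Among 12 proteases of elastin or fibrillin and their inhibitors, 7 were called higher and 1 lower in each genotype, beside 23.9% and 23.7% of all genes in wildtype and 21.1% and 21.0% in mutant cells. Mmp2, gelatinase A, rose by 2.31 in wildtype and 1.97 in mutant cells on the log2 scale, Ctsk, the elastin-cleaving cathepsin K, by 1.73 and 1.82, and Mmp3 by 2.68 and 1.65. The inhibitor Timp3 rose with them, by 1.85 and 1.93. Of the 56 pathway genes in all, edgeR called 0 between genotypes in either state, and 1 in each had an unadjusted p under 0.05.

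To show which other genes had a time course like that of a member, profiles of log2 CPM over the 16 libraries, each centred on its own mean, were compared by their root mean square difference among 10475 genes. The nearest to Eln were Podn (0.63), which encodes the matrix proteoglycan podocan, Hp (0.66) and Il33 (0.67), larger distances than those from any other member to its nearest gene. Igfbp3 (0.32) and Podn (0.37) were nearest to Mfap4, and Prss35 (0.19) and Lama4 (0.19), a laminin chain, to Fbn2. For Fbn1 they were Lphn2 and Mll3 (both 0.15), for Mfap2 Parp10 (0.14) and C1qtnf6 (0.18), and for Fbln5 Mrvi1 and Gm16515 (both 0.14). Fndc3a (0.13) was nearest to Efemp1, BC018242 (0.14) to Fbln1, Fblim1 (0.14) to Fbln2 and Tmem106a (0.20) to Mfap5. Among the members themselves the nearest pair was Fbn1 and Fbln5 (0.27), then Fbln1 and Mfap5 (0.31), and Fbn2 and Mfap2 stood at 0.54. These distances describe libraries that share lines and depth, and they carry no test.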

How the data were processed

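Libraries were stranded, per the labels' protocols. TopHat2 2.1.1, HTSeq 0.6.1p1, Bowtie2 2.2.9, bcl2fastq 2.18 and build mm9 are named, per the submitters' processing notes. Neither the annotation nor whether counting used strand was stated, so reads of overlapping antisense genes cannot be told apart. The authors deposited whole-number read counts per gene, not normalized (0 columns of other samples, 0 rows without a gene name). CPM were computed here with TMM scaling. States were compared on 8 summed libraries (15740 genes kept by filterByExpr, 4 residual degrees of freedom) and days on 16 (15439 genes, 8 residual degrees of freedom), with edgeR 4.0.16 in R 4.3.3 (quasi-likelihood, robust, two-sided, Benjamini-Hochberg over all genes). SE was taken as |log2 fold change| divided by the root of F. The scripts were tested on simulated data.

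The members and lists were chosen with earlier results of these data known. All members and Plagl1 were named, with up to 3 genes of each pathway list by smallest p between states, 2 between genotypes, and the 3 nearest profiles of each member. Timp1 and the 3 printed promoters were chosen after values were seen. With 2 lines against 2, the smallest exact permutation p is 0.333, so each call borrows its spread from all genes. The labels do not say whether each line came from its own embryo. Same-group libraries were no copies of each other (chi-square of 34.1 to 73.1 per degree of freedom). Lines pair states and days by design (correlation of deviations 0.196 in wildtype, 0.248 in mutant cells). The main tests had no term for the line. Alternatives used DESeq2 1.42.0, limma 3.58.1 voom, other scalings and filters, a fold of 1.5, and fewer lines or days. Scaling by total counts alone was chosen after seeing the data.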

Additional observations from a re-analysis of the deposited data

How the results depend on the processing

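Across the single-gene values of the 10 members, 893 of 975 alternative values kept direction and call, 26 lost a call, 25 gained one and 31 changed sign, the last in genotype differences, their interaction or the step from day 10 to day 12, none of which passed the test. The number of members called higher between states was 6 to 8 in wildtype and 5 to 7 in mutant cells, and 6 to 7 from day 2 to day 8, when any line was left out. The number called lower in wildtype, 0 as reported, was 1 (Fbln2) under RLE scaling, DESeq2, the replicate block, limma-voom, the 2 groups alone and the quiescent sum without day 8, and 0 to 1 without single lines. The number called lower in mutant cells, 1 as reported, was 0 under upper quartile scaling, total counts alone, a filter of 10 CPM and a test against a fold of 1.5, and 0 to 1 without single lines. From day 2 to day 8 the number lower was 1 under DESeq2 and the replicate block and 0 to 1 without single lines. From day 8 to day 10 DESeq2 gave 1 higher. From day 8 to day 12 the number higher was 0 with total counts alone or against a fold of 1.5, 2 with DESeq2 and limma-voom, 3 with the replicate block and 0 to 1 without single lines. No scaling moved the median of all genes by over 0.1.

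Signs of genotype differences near 0 changed. At quiescence the sum without day 10 gave -0.17 for Eln, -0.0092 for Mfap5 and 0.067 for Efemp1, the sum without day 12 gave 0.031 for Mfap2, and total counts alone gave -0.011 for Fbn2. In proliferation limma-voom gave -0.089 for Mfap4. Without single lines the quiescent difference ran from -0.69 to 0.63 for Eln, -0.20 to 0.32 for Fbn2, -0.34 to 0.20 for Fbln1, -0.21 to 0.37 for Fbln2, -0.13 to 0.31 for Fbln5, -0.21 to 0.054 for Mfap2, -0.83 to 0.28 for Mfap4, -0.21 to 0.34 for Mfap5, -0.39 to 0.37 for Efemp1 and -0.080 to 0.49 for Loxl4. In proliferation it ran from -0.38 to 0.45 for Mfap4, -0.53 to 0.066 for Mfap5, -0.071 to 0.091 for Efemp1, -0.042 to 0.77 for Emilin1 and -0.073 to 0.49 for Tgfbr3. The interaction ran from -2.36 to 0.075 for Eln and -0.80 to 0.13 for Mfap4, and the step from day 10 to day 12 from -0.15 to 0.26 for Mfap2. The cause was not tested.

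For the genotype comparisons, same-numbered lines share the replicate number and the letter I or L, whose meaning the labels do not give. The correlation of same-numbered deviations was -0.0285 in proliferation and 0.0112 at quiescence, and the replicate block left 0 members called. Members that separated by this letter at quiescence are named with the results. In the comparisons of states and days the replicate block changed no member's call other than those given with the results. Precision is limited by 2 lines per genotype rather than by depth, since 3 reads correspond to 0.0491 to 0.107 CPM and the lowest value of any member was 3.99 CPM. Where a group is reduced to 1 line, that line is assumed to vary like the others.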

Other observations

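Integrins are the cell surface receptors for fibrillins and fibulin-5, and the TGF-beta pathway acts on ligands that microfibrils hold. Between states 23.9% of all genes were called higher and 23.7% lower in wildtype and 21.1% and 21.0% in mutant cells. Of 9 integrin subunits that bind fibrillin or fibulin-5, 3 were called higher and 4 lower at quiescence in wildtype and 3 and 3 in mutant cells (edgeR, adjusted p under 0.05), with a median log2 change of -0.41 and -0.61. Itga8 rose by 2.19 in wildtype and 1.89 in mutant cells on the log2 scale, and Itgb5 by 0.77 and 0.66. Itga5, the fibronectin receptor subunit, fell by 0.84 and 0.81. Of 10 TGF-beta ligands, receptors and SMADs, 4 were called higher and 1 lower in each genotype. The median log2 change of this list was only 0.19 in wildtype and 0.15 in mutant cells, against 0.05 over all genes in each. The genes named next include the largest rise and the largest fall of the list. The ligand gene Tgfb2 rose by 1.77 and 1.68, the receptor gene Tgfbr2 by 1.96 and 1.71 and the co-receptor gene Tgfbr3 by 1.64 and 1.38, while Smad7, which encodes an inhibitor of the pathway, fell by 1.85 and 1.87.

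Between genotypes the pathway genes with the smallest p were all at an adjusted p of 1.00. Their log2 values, mutant over wildtype, in proliferation were -1.98 for Adamts17 (SE 0.61), 0.43 for Emilin1 (SE 0.24) and 0.28 for Mmp2 (SE 0.14). The value for Adamts17 rested on 8 reads in mutant and 37 in wildtype lines and was -1.14 without wildtype replicate 2 and -3.33 without mutant replicate 2. At quiescence Mmp3 had -0.99 (SE 0.31), at 5.46 ± 0.642 CPM in mutant and 10.9 ± 5.56 CPM in wildtype lines (SD, n = 2), and -0.35 without wildtype replicate 1. Timp1, the inhibitor called lower at quiescence in both genotypes, had summed CPM of 859 ± 169 in proliferating and 336 ± 75.4 in quiescent wildtype lines.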
